A study of Mus musculus with 2 samples.

Results

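The mevalonate pathway turns acetyl-CoA into the isoprenoid units from which cells build cholesterol, dolichol, ubiquinone and the lipid anchors of small GTPases. Its transcripts were compared between mouse embryonic fibroblasts (MEFs) given celastrol and MEFs given the solvent DMSO. The set was chosen by name, with earlier results of these data known. It holds Acat2, Hmgcs1, Mvk, Pmvk, Mvd, Idi1, Fdps, Ggps1 and Fdft1, in pathway order. Each was read from the probe set (the group of probes summarised as 1 value) that names the gene alone and had the highest mean. A value was found for 8 of these 9 genes, of 19946 genes in all. No probe set named Acat2, the cytosolic thiolase that makes acetoacetyl-CoA, alone by symbol, alias or gene identifier, and that gene is not analysed here. Whether a probe set that names several genes includes it was not checked.

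Both cultures were fibroblasts infected with an adenovirus that expresses LacZ, a bacterial enzyme often used as control cargo, and kept in DMEM with 1% FBS. The treated culture received 250 nM celastrol, a plant triterpenoid, for 7 h, and its counterpart received DMSO for the same time. Each condition was measured on 1 array, so no difference below has a replicate check, no p-value is given, and the treatment cannot be told apart from the culture or the array. The labels read here give no mouse strain, passage or number of embryos, and fewer cells of a kind cannot be told apart from less RNA per cell in a bulk sample.

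A gene counted as detected when its value in at least 1 array exceeded 5.73 on the log2 scale, a limit set at the 95th percentile of 1210 receptor probe sets (olfactory and vomeronasal receptors, genes of sensory neurons). This left 13902 detected genes. Of 11 fibroblast markers 10 were detected, among them vimentin (Vim, 13.95 with celastrol and 13.85 with DMSO), fibronectin (Fn1, 13.47 and 13.42) and the collagen chain Col1a1 (11.69 and 12.16). Of these 10, 7 were lower with celastrol and 3 higher, with a median difference of -0.20, and S100a4 was lowest, at 10.26 with celastrol and 11.14 with DMSO (-0.88). Lum was under the limit in both arrays and Thy1 was near it, at 6.02 with celastrol and 6.19 with DMSO. Of the leukocyte markers, Ptprc, Adgre1, Itgam and Lyz2 were under the limit in both arrays, while Cd68, Cd14 and Csf1r were detected and 1.47, 0.71 and 0.26 higher with celastrol on the log2 scale. Of the other marker lists, 2 of 5 endothelial, 4 of 5 epithelial, 1 of 4 measured hepatocyte and 3 of 5 adipocyte genes were detected, the brightest being Vwf (6.48 and 6.40), Krt8 (6.92 and 6.96), Apoa1 (6.51 and 6.41) and Fabp4 (7.94 and 7.54), each with celastrol before DMSO. Whether such cells had a part in the pathway's values was not tested.

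As background, the enzymes work in a line. Acetoacetyl-CoA is condensed to HMG-CoA by Hmgcs1, mevalonate is phosphorylated by Mvk and then Pmvk, and Mvd decarboxylates the product to isopentenyl diphosphate, which Idi1 isomerises. Fdps joins these units to farnesyl diphosphate, from which Fdft1 makes squalene for sterols and Ggps1 makes geranylgeranyl diphosphate for protein prenylation. Transcription of many of these genes is known to be driven by SREBP2, a membrane-bound factor released when sterols run low, which acts at sterol regulatory elements together with NF-Y at CCAAT boxes and Sp1 at GC boxes.

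The stretches upstream of 4 enzymes that differed most between the arrays, and the stretch between Ggps1 and its neighbour, are shown so that these motifs can be seen beside the values. They are RefSeq sequences on GRCm38.p6, printed 5′ to 3′ on the strand of the enzyme gene, and capitals mark the inverted CCAAT box letters ATTGG on either strand and the sterol element core, searched as TCACNCCA and CACCCCAC.
Hmgcs1, the 250 bases before the start site (chr13:119690101-119690350, plus strand): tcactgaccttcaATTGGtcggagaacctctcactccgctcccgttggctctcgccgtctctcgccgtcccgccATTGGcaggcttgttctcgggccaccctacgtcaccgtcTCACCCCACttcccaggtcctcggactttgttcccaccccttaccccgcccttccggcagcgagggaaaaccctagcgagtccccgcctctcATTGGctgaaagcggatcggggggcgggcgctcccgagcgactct
Idi1, the 250 bases before the start site (chr13:8885356-8885605, plus strand): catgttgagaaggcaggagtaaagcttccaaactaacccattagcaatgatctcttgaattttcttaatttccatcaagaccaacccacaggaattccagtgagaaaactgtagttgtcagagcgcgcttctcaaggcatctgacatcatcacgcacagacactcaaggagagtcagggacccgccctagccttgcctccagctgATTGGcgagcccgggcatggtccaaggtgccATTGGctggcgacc
Mvd, the 250 bases before the start site (chr8:122443423-122443672, minus strand): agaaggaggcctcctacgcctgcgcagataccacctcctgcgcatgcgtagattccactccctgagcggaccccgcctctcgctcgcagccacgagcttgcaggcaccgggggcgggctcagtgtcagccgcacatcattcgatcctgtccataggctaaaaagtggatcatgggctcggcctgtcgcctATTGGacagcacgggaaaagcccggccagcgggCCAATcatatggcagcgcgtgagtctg
Mvk, the 190 bases between it and Mmab (chr5:114444074-114444263, plus strand): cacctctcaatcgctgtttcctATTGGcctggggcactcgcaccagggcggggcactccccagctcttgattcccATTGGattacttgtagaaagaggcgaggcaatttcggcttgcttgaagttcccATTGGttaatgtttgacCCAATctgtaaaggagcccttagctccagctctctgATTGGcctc
Ggps1, the 42 bases between it and Arid4b (chr13:14063567-14063608, minus strand): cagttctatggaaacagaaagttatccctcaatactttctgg

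Transcripts of 7 of the 8 measured enzymes were lower with celastrol and 1 was higher. Hmgcs1, Idi1, Mvd and Mvk were each at least 2-fold lower, Fdft1 and Fdps were lower by less than 2-fold, and Pmvk and Ggps1 differed least, in opposite directions. The 4 enzymes that were at least 2-fold lower stand beside a background of 0.662% of all detected genes past the same fold. None of the 8 was at least 2-fold higher, against 1.88% of detected genes. The median log2 difference of the 8 was -1.15, and that of all detected genes was -0.01. A value below 0 of any size was seen for 51.9% of detected genes. Of the 6884 detected genes with a mean of both arrays at least as high as that of Pmvk, the dimmest of the 8 by mean, 0.886% were at least 2-fold lower.

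**Figure D1:**
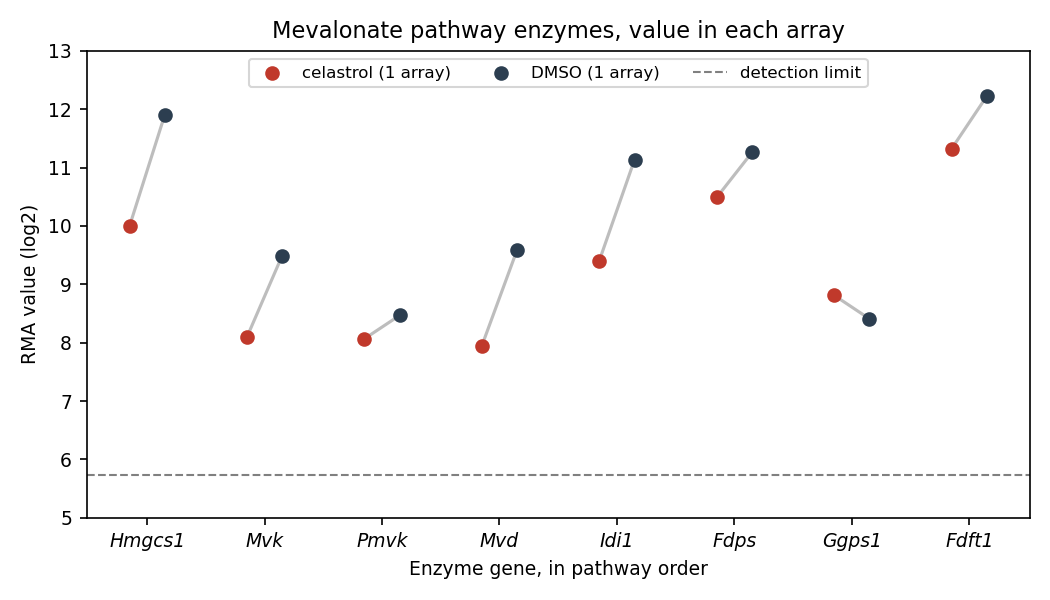
RMA value on the log2 scale of each measured enzyme gene, in pathway order, with celastrol on the left and DMSO on the right of each pair (1 array each, no error bars), and the detection limit of 5.73 as a dashed line. In 7 pairs the celastrol point is lower, in Ggps1 it is higher (8.81 against 8.41), and all points lie above the limit.

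Hmgcs1, the cytosolic HMG-CoA synthase at the entry of the pathway (chromosome 13, 119690351 to 119708260, probe set 10412466), had a value of 10.00 with celastrol and 11.90 with DMSO. Its log2 difference of -1.90 puts the celastrol level at 26.7% of the DMSO level. It was the lowest of the 8, with rank 4 of 13902 detected genes counted from the lowest difference. The enzyme uses acetyl-CoA outside mitochondria, and its gene is a well-known SREBP2 target.

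The kinase steps that follow differed from each other. Mvk, mevalonate kinase (chromosome 5, 114444264 to 114460591, probe set 10524555), stood at 8.10 with celastrol and 9.49 with DMSO. That is a difference of -1.40 on the log2 scale, 2.63-fold lower, at rank 37. Pmvk, phosphomevalonate kinase (chromosome 3, 89454541 to 89469014, probe set 10493548), stood at 8.07 with celastrol and 8.47 with DMSO, a difference of -0.40 or 1.32-fold lower, at rank 1569. Mvk and Pmvk act on successive intermediates, and their differences lay 0.99 apart on the log2 scale.

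Mvd and Idi1, which make and isomerise the isoprene unit, were both more than 3-fold lower. Mvd, mevalonate diphosphate decarboxylase (chromosome 8, 122433596 to 122443422, probe set 10582310), had 7.95 with celastrol and 9.59 with DMSO, a difference of -1.64 and a fold of 3.12, at rank 16. Its celastrol value was the nearest of the 8 to the detection limit, 2.22 above it. Idi1, isopentenyl-diphosphate isomerase (chromosome 13, 8885606 to 8892396), was read by 2 probe sets. Probe set 10403413 gave 9.40 with celastrol and 11.13 with DMSO, a difference of -1.73 at rank 7, and probe set 10482762 gave 9.31 with celastrol and 11.06 with DMSO, a difference of -1.75.

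At the branch point the differences were smaller. Fdps, farnesyl diphosphate synthase (chromosome 3, 89093588 to 89101967, probe set 10499483), had 10.49 with celastrol and 11.26 with DMSO. Its difference was -0.77, or 1.71-fold lower, at rank 264. Fdft1, squalene synthase, which commits farnesyl diphosphate to sterols (chromosome 14, 63145150 to 63181687), was also read by 2 probe sets. Probe set 10412909 gave 11.32 with celastrol and 12.22 with DMSO, a difference of -0.90 at rank 143, and probe set 10420730 gave 11.32 with celastrol and 12.20 with DMSO, a difference of -0.88. With these, 6 of the 8 enzymes were at least 1.5-fold lower, beside 4.68% of detected genes.

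Ggps1, geranylgeranyl diphosphate synthase on the branch that serves protein prenylation (chromosome 13, 14049790 to 14063566, probe set 10407833), was the exception. Its value was 8.81 with celastrol and 8.41 with DMSO, a difference of 0.40 or 1.32-fold higher, at rank 12320 of 13902. The differences of Fdft1 and Ggps1, which draw on the same farnesyl diphosphate, lay on opposite sides of 0.

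Scatter within these arrays gives a scale for the smaller values. For the 1210 receptor probe sets, the central 95% of log2 differences ran from -0.42 to 0.41. Pmvk and Ggps1 lay inside that range, at its edges, and the other 6 lay below it. Receptor probe sets are dim, and their scatter holds no variation between cultures. Among 761 genes read by several detected probe sets, the gap between a gene's own log2 differences had a median of 0.10 and a 90th percentile of 0.51, which is larger than the differences of Pmvk and Ggps1, and for Idi1 and for Fdft1 it was 0.02. In order of difference the enzymes ran Hmgcs1, Idi1, Mvd, Mvk, Fdft1, Fdps, Pmvk and Ggps1. Steps between neighbours in that order were at most 0.25 among the first 4, then 0.49 between Mvk and Fdft1, and largest between Pmvk and Ggps1, at 0.80. Without replicates none of these steps has an error, so the order describes these 2 arrays only.

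**Figure D2:**
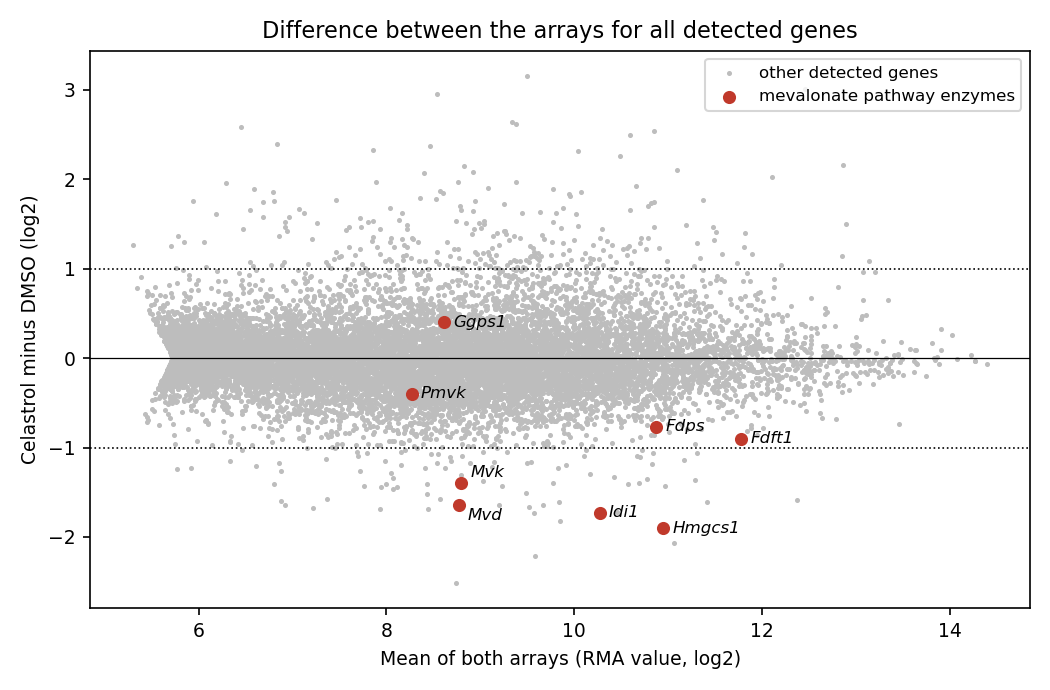
Log2 difference, celastrol minus DMSO, against the mean of both arrays for all 13902 detected genes (grey) with the 8 measured enzymes in red; dotted lines mark 2-fold. Hmgcs1, Idi1, Mvd and Mvk lie under the lower dotted line at different mean levels, and Ggps1 lies above 0.

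The promoter windows, 250 bases before to 50 after a start site, were matched by symbol for 6 of the 8 measured enzymes, with 2 windows for Pmvk and 1 for each of the others. Fdps and Fdft1 are named only. The sterol core TCACNCCA was found in 1 of them, Hmgcs1, where its first base lies at position -137 from the start site and where CACCCCAC overlaps it. Either core was present in 6.57% of all 32851 windows. The CCAAT letters ATTGG were in at least 1 window of each of the 6 and in 37.4% of all windows. At least 2 copies were found in the windows of Hmgcs1, Mvk, Mvd, Idi1 and Ggps1, against 11.7% of all windows, and at least 4 in Hmgcs1 and Mvk, against 1.06%. The fourth copy of Hmgcs1 starts 11 bases past the start site, outside the stretch printed above. Pmvk had 1 copy in its upstream window, which starts at 89454291, and 0 in the other, which starts at 89459321. Ggps1 had 3 copies, all outside the 42 bases printed above. The stretches printed for Ggps1 and Mvk lie between the outer bounds of neighbouring genes. The windows of these enzymes are counted from a start site inside their gene bounds, so window and printed stretch do not share a start. Whether the number of copies goes with the difference was not tested. The GC box GGGCGG was in Hmgcs1, Mvk, Mvd and Idi1 and in 35.7% of all windows, and the E-box CACGTG was in none of the 6, against 7.15%. All motifs were searched on both strands, and a match describes letters, not a bound site.

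**Figure D3:**
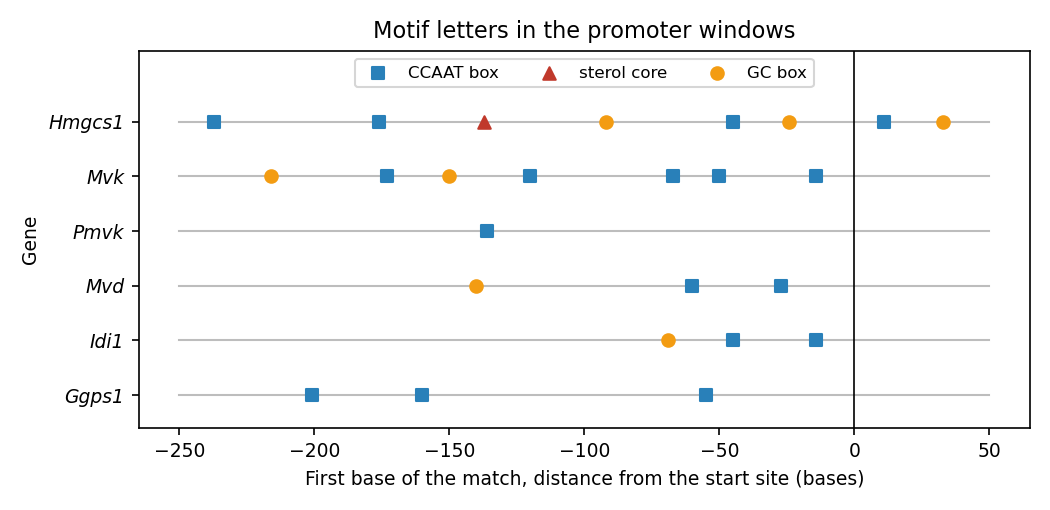
Position of the first base of each motif match, in bases from the start site at 0, along the promoter windows of the 6 measured enzymes that have one (CCAAT box ATTGG, sterol core TCACNCCA and GC box GGGCGG, either strand; the second window of Pmvk, which holds none of these, is not drawn). The single sterol core is in Hmgcs1, 5 CCAAT boxes are in Mvk, and 3 are in Ggps1.

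Genes next to the enzymes offered a comparison at the same loci. Mmab, a cobalamin adenosyltransferase gene of mitochondria, lies head to head with Mvk. The 190 bases printed above separate their outer gene bounds and hold 5 CCAAT boxes. Mmab had 7.80 with celastrol and 8.61 with DMSO, a difference of -0.81, at rank 219, so both genes of that pair were lower. Arid4b, a chromatin factor gene, lies head to head with Ggps1, with 42 bases between their outer gene bounds. It had 9.33 with celastrol and 9.07 with DMSO, a difference of 0.26, so both genes of that pair were higher. The differences of Arid4b and Ggps1 both lay inside the range of the receptor probe sets (-0.42 to 0.41). Ctsb, the lysosomal protease cathepsin B, overlaps Fdft1 by 774 bases in the RefSeq table. It was higher, at 12.27 with celastrol and 11.57 with DMSO, while both Fdft1 probe sets were lower. Whether any probe lies in the overlap is not given in the sources used here. Rusc1, 224 bases from Fdps, differed by -0.03, and Cyba, 655 bases from Mvd, by -0.20. Tbce, 10139 bases from Ggps1, was 0.65 higher with celastrol. Nim1k, 1833 bases from Hmgcs1, differed by -0.23. Beside Pmvk, Pbxip1 differed by -0.30 and Kcnn3, which was near the detection limit, by -0.15. Of 12 genes listed beside the 9 named enzymes 10 were detected, 6 of them below 0 and 4 above, with a median of -0.09. Among all detected genes 51.9% were below 0, so 2 neighbours with the same sign are common.

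Enzymes downstream of Fdft1 also had lower values. Of 11 measured genes that take squalene to cholesterol, 10 were below 0, beside 51.9% of all detected genes. The median was -0.94, and 5 were lower by at least 2-fold, beside 0.662%. Nsdhl and Hsd17b7, of sterol demethylation, stood at -1.40 each, and Lbr at -0.37 and Sc5d at 0.17 were the highest. Acat1, the mitochondrial thiolase, was 10.15 with celastrol and 10.66 with DMSO, a difference of -0.51, and Idi2, the muscle-type isomerase, was under the detection limit in both arrays. The regulators had smaller differences, with a median of -0.32 over 9 genes and none past 2-fold. Srebf2, which encodes SREBP2, was 10.90 with celastrol and 11.52 with DMSO, a difference of -0.62. Rnf145, a ubiquitin ligase, stood at -0.55, and Insig2 (0.04) and Usp20 (0.16) were highest.

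Of the genes that use the isoprenoid products or move sterols, none passed 2-fold in either direction, which is near the background of 0.662% lower and 1.88% higher for lists of this size, and their counts below 0 stand beside 51.9% of all detected genes. Of 10 protein prenylation genes, 5 were below 0 and 5 above, with a median of 0.05. Rce1, the protease that trims prenylated proteins, was highest at 0.75, followed by the Rab prenylation subunit Rabggta (0.23), and Fntb, the farnesyltransferase beta subunit, was lowest at -0.19, followed by Zmpste24 (-0.11). Of 14 dolichol and ubiquinone genes 10 were below 0, with a median of -0.13. Coq2, the prenyltransferase of ubiquinone synthesis, was lowest at -0.66, followed by Coq9 at -0.64, and Pdss2 (0.28) and Coq7 (0.13) were highest. Of 8 sterol uptake and export genes 2 were below 0, with a median of 0.08. Among these the sterol carrier Stard4 was lowest at -0.88, with Scarb1 at -0.08, and the lysosomal cholesterol exporter Npc1 was highest at 0.78, with the sterol receptor gene Nr1h3 at 0.20. No difference between lists was tested.

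**Figure D4:**
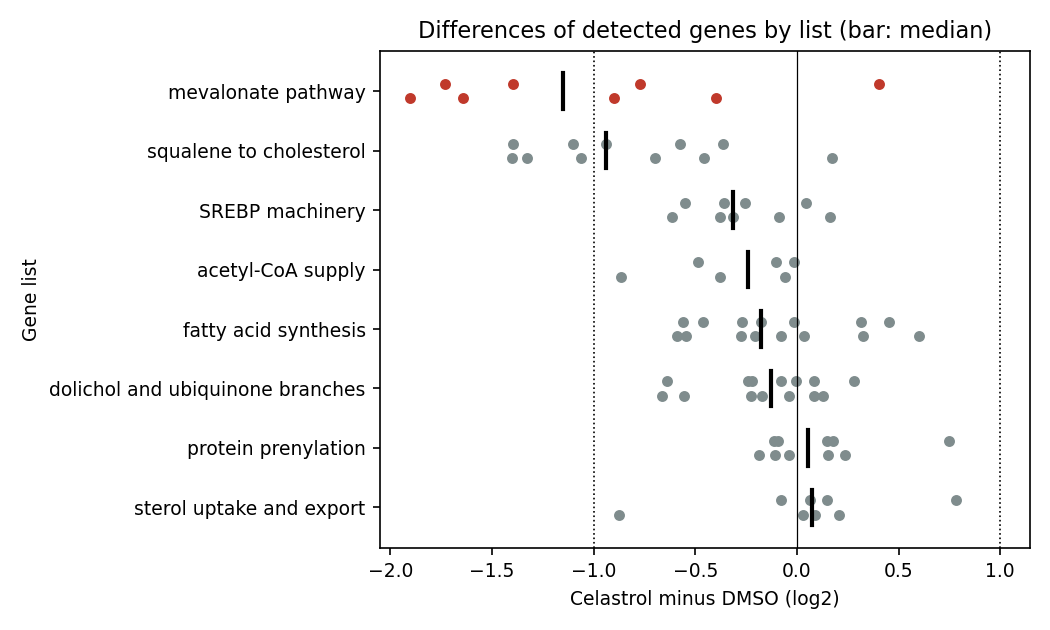
Log2 difference, celastrol minus DMSO, of each detected gene in 8 lists, with a black bar at the list's median and dotted lines at 2-fold. The mevalonate enzymes (red) have a median of -1.15 and squalene to cholesterol -0.94, and the other 6 medians lie between -0.32 and 0.08.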

How the data were processed

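Total RNA of 2 MEF cultures was labelled for Affymetrix whole-transcript arrays, per the labels' protocols. The authors deposited log2 expression values from RMA (background correction, quantile normalization and a summary per probe set), a tool named in the submitters' processing notes. On its version, its settings and which arrays were normalized together, nothing is given in the sources used here. That the base is 2 was read from the values, 2.73 to 14.52 with medians of 6.35 (celastrol) and 6.33 (DMSO). RMA compresses differences of dim probe sets.

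GEO's platform annotation gave 1 gene for 21797 of 35556 probe sets, several for 1613 and none for 12146; only the first entered. Symbols were updated through a GRCm38.p6 gene table, which held the identifiers of 21698 probe sets. The difference is celastrol minus DMSO, and its fold is 2 raised to that difference. The enzymes and gene lists were chosen with earlier results of these data known. Of the other lists, the 2 highest and 2 lowest genes are named, or the brightest markers. Alternatives were the detection limit, the probe set used, the scaling and the fold threshold. The calculation was tested on simulated data with less scatter than the receptor probe sets and a single large shift. That test does not cover the smaller differences. Python 3.11.15 was used with pandas 2.3.3, numpy 2.4.6, statsmodels 0.14.6 and matplotlib 3.10.9.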

Additional observations from a re-analysis of the deposited data

How the results depend on the processing

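Of 144 recalculations, all 144 stayed within the tolerance set for them: 0.21 on the log2 scale for a value, which is the SD of the receptor probe sets' differences, and 1.5 times for a count. They covered the enzymes, their median and count, Mmab, Arid4b and 7 other lists under another detection limit or none, quantile normalization, subtraction of the median or of a lowess trend, and the mean or the dimmest probe set in place of the brightest. Part of this outcome was fixed in advance. Another detection limit left each enzyme's difference as it was, and another choice of probe set could not alter enzymes with 1 probe set. The median that was subtracted was -0.01, so that setting could not move an enzyme's difference past the tolerance. Quantile normalization was applied to values from RMA, which already includes that step. The median of the 8 enzymes ran from -1.15 to -1.10, Hmgcs1 from -1.90 to -1.88, Mvk from -1.40 to -1.33, Pmvk from -0.40 to -0.33 and Ggps1 from 0.40 to 0.47. The number of enzymes past the threshold was 6 at 1.5-fold and 3 at 3-fold, where Mvk no longer counted. Against the 4 at 2-fold, the 6 lay exactly at the limit of 1.5 times. No paired analysis was possible because each condition has 1 array. The number of arrays limits the precision.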

Other observations

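The 6 genes that supply acetyl-CoA to the pathway had a median log2 difference of -0.24, against -0.01 for all detected genes. All 6 values were below 0, as were 51.9% of detected genes, and none passed 2-fold. Acss2, the cytosolic acetyl-CoA synthetase, was lowest, at 6.98 with celastrol and 7.85 with DMSO (-0.87). The mitochondrial citrate carrier Slc25a1 stood at -0.49 and ATP citrate lyase, Acly, at -0.38. Pdha1, of pyruvate dehydrogenase, was highest at -0.01, followed by Acss1 at -0.06 and Cs, citrate synthase, at -0.10. Acly, Cs, Acss1 and Pdha1 lay inside the range of the receptor probe sets (-0.42 to 0.41), and Acss2 and Slc25a1 lay below it. Of 15 genes of fatty acid synthesis, the other large use of that acetyl-CoA, 10 were below 0 and none passed 2-fold, with a median of -0.17. At least 2-fold differences are rare among all detected genes, at 0.662% lower and 1.88% higher, so a count of 0 in lists of this size is near the background. Elovl6 (-0.59) and Elovl1 (-0.56), both elongases, were lowest, and Me1, malic enzyme (0.45), and Elovl5 (0.60) were highest.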
